A study of Arabidopsis thaliana with 24 samples.

Results

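The 4 enzyme genes of amino acid and pyruvate turnover described here, measured in Arabidopsis thaliana roots under salt, are AT5G38710 (a proline dehydrogenase), AT4G33150 (lysine breakdown), MGL (AT1G64660, methionine gamma-lyase) and PPDK (AT4G15530, pyruvate orthophosphate dikinase). They were chosen by name and with earlier results of these data known, 4 of the 13356 genes that could be named on the array. Each is read by 1 probe set, and a count of members beside a share of all probe sets is a description and no test. Roots of 6-week-old Col-0 plants grown in hydroponic culture were measured on 24 Affymetrix ATH1 arrays, on which a set of short probes reads each gene. The double mutant bzip1/bzip53 was sampled untreated and at 1 h, 3 h and 6 h of treatment with 150 mM NaCl, and so was wild type, which makes 8 groups of 3 arrays. The series asks how bZIP transcription factors take part in the change of root metabolism under salt, as its title puts it. The mutant alleles are not described in the labels, the 4 mutant groups share 1 double mutant, and the tissue field speaks of seedlings although the age is given as 6 weeks. The arrays of a group are called biological replicates without a word on whether plants were pooled or shared, so each p-value reflects variation among arrays, which may be technical. For the untreated roots no separate harvest time is given, so salt and time in the day cannot be told apart in a comparison with the control.

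Plants take carbon skeletons and electrons from amino acids when sugar runs short, and bZIP1 and bZIP53 are known as transcription factors that act in this low-energy state and activate proline dehydrogenase genes. Proline dehydrogenase starts the oxidation of proline in mitochondria, and the proline that plants store under osmotic stress is broken down through it. The bifunctional enzyme of AT4G33150 carries out the opening steps of lysine breakdown, lysine-ketoglutarate reductase and saccharopine dehydrogenase. Methionine gamma-lyase splits methionine into methanethiol, ammonia and 2-oxobutyrate, a precursor of isoleucine. Pyruvate orthophosphate dikinase interconverts pyruvate and phosphoenolpyruvate and is known from the remobilisation of amino acid carbon and nitrogen.

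Levels are log2 values, and a difference of 1 is a doubling of signal. A difference was called at an adjusted p under 0.05 (limma, Benjamini-Hochberg over 22746 probe sets), and ± is the SD of 3 arrays. The targeted gene BZIP53 stood at 9.19, 8.74, 8.86 and 9 in bzip1/bzip53 (control, 1 h, 3 h, 6 h), against 10.57, 11.01, 11 and 10.93 in wild type. It was called lower in the mutant in all 4 conditions (-2.27 to -1.38), but signal well above the bacterial control probe sets remained there, and the labels do not say whether its probes lie inside the disrupted part of the gene. bZIP1 was not analysed here, so BZIP53 alone checks the mutant labels. Of the root markers EXPA7 and EXPA18 were matched to a probe set by name (2 of 8). They were present, at 8.07 and 7.71 in mutant controls and 8.23 and 7.56 in wild-type controls. Both were called lower at every salt time in both genotypes, and their part in the salt responses was not tested. Of the leaf markers RCA (1 of 8) had group means of 5.61 to 6.47. RCA was called in 4 comparisons: higher in the mutant at 6 h than in its control (0.56) and than at 3 h (0.81, adjusted p = 0.0195), lower in the mutant than in wild type at 3 h (-0.86), and higher in the mutant in the difference of the step from 3 h to 6 h (1.17). The wild-type RCA arrays at 3 h were uneven, from 6.08 to 7.15 with a median of 6.18. The part of RCA in the results was not tested. Array medians ran from 6.53 to 6.67 and correlations within a group from 0.985 to 0.997. The signal of 25S rRNA was 13.03 to 13.47 in the salt arrays and 11.93 to 12.71 in the controls, and its part in the salt responses was not tested. Mutant control array 1 carried spike-in signal for the dap probe set of 8.20, against at most 3.43 elsewhere, and had the largest actin 3' to 5' gap (3.17). Mutant 6 h array 1 had an actin gap of 3.16 and a GAPDH gap of 1.5, and the largest gaps on the arrays other than these 2 were 2.92 for actin and 0.92 for GAPDH.

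AT5G38710 was the member with the widest range and rose in both genotypes at every time. In bzip1/bzip53 its levels were 5.27, 4.49 and 4.57 in the control, 6.69, 6.19 and 7.76 at 1 h, 8.34, 8.31 and 8.09 at 3 h, and 7.85, 7.99 and 7.29 at 6 h. In wild type they were 5.13, 5.29 and 5.63 in the control, 7.27, 6.35 and 7.63 at 1 h, 7.68, 7.48 and 7.69 at 3 h, and 7.44, 7.41 and 8.03 at 6 h. Every salt array of either genotype lay above every control array. How many of all probe sets separate like this under salt was not counted. As 24.1% to 47.9% of them were called against the control, such separations are only described here and below. In whole roots a change in the share of a cell type and a change of RNA per cell cannot be told apart. In bzip1/bzip53 the rise was 2.11 at 1 h, 3.47 at 3 h and 2.94 at 6 h (4.30-fold, 11.1-fold and 7.65-fold, SE 0.334, adjusted p = 9.29e-05, 4.69e-08 and 4.1e-07). In wild type it was 1.73, 2.26 and 2.28 (3.32-fold, 4.81-fold and 4.84-fold, adjusted p = 0.000636, 1.97e-05 and 1.09e-05). The mutant control had 2 arrays below 4.69, the highest signal of 27 bacterial control probe sets on the 23 arrays other than mutant control array 1, so the mutant folds have no exact size. The highest group was the mutant at 3 h (8.25 ± 0.14), whose arrays all lay above those of any other group. The next 5 salt groups, from the mutant at 6 h (7.71 ± 0.37) down to the mutant at 1 h (6.88 ± 0.81), each overlapped the neighbour in the order, and the wild-type control (5.35 ± 0.25) and mutant control (4.78 ± 0.43) overlapped at the bottom.

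AT4G33150 had the narrowest range of the 4, and its levels fell early under salt. In bzip1/bzip53 they were 8.99, 8.97 and 9.15 in the control, 8.46, 8.46 and 8.38 at 1 h, 8.71, 8.55 and 8.53 at 3 h, and 8.51, 8.75 and 8.44 at 6 h. In wild type they were 9.31, 9.27 and 9.22 in the control, 8.18, 8.60 and 8.22 at 1 h, 8.56, 8.08 and 8.68 at 3 h, and 9.30, 9.5 and 9.42 at 6 h. All mutant salt arrays lay below the mutant controls, while the wild-type 6 h arrays overlapped the wild-type controls. In bzip1/bzip53 it fell by 0.61 at 1 h, 0.44 at 3 h and 0.47 at 6 h on the log2 scale (SE 0.129, adjusted p = 0.00166, 0.00837 and 0.0049). In wild type it fell by 0.93 at 1 h and 0.83 at 3 h (adjusted p = 2.15e-05 and 3.8e-05), and at 6 h the difference from the control was 0.14 (95% interval -0.13 to 0.41, adjusted p = 0.417). The order ran from wild type at 6 h (9.40 ± 0.10) and the wild-type control (9.27 ± 0.044), which overlapped, through the mutant control (9.04 ± 0.098), which overlapped neither neighbour, to 5 groups between 8.33 and 8.60 that overlapped in turn.

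MGL was called higher at 3 h and 6 h in bzip1/bzip53, and at 6 h in wild type. In bzip1/bzip53 its levels were 6.27, 6.36 and 6.33 in the control, 6.42, 6.75 and 6.69 at 1 h, 7.73, 7.98 and 7.62 at 3 h, and 7.48, 8.30 and 7.27 at 6 h. In wild type they were 7.07, 6.83 and 7.27 in the control, 6.84, 6.53 and 6.76 at 1 h, 6.62, 6.54 and 7.90 at 3 h, and 8.69, 8.62 and 9.37 at 6 h. All mutant salt arrays lay above the mutant controls, also at 1 h, where no difference was called. In wild type only the 6 h arrays were all above the controls. In bzip1/bzip53 the difference was 1.46 at 3 h (2.74-fold, SE 0.287, adjusted p = 0.000281) and 1.36 at 6 h (2.57-fold, adjusted p = 0.000505), with 0.30 at 1 h (adjusted p = 0.497). In wild type the difference was 1.84 at 6 h (3.57-fold, adjusted p = 2.24e-05), with -0.35 at 1 h and -0.04 at 3 h (adjusted p = 0.423 and 0.939). The third wild-type array at 3 h stood 1.32 above the mean of the other two of its group, and without it the wild-type difference at 3 h was -0.48 (adjusted p = 0.147). The wild-type 6 h group (8.89 ± 0.42) was highest and the mutant control (6.32 ± 0.044) lowest, each apart from its neighbour, and the 6 groups between them (7.78 to 6.62) overlapped in turn.

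Most values of PPDK were no brighter than the brightest bacterial control probe set (4.69). In bzip1/bzip53 its levels were 4.10, 4.23 and 4.11 in the control, 4.01, 4.40 and 4.26 at 1 h, 4.07, 4.39 and 4.52 at 3 h, and 4.75, 4.77 and 4.59 at 6 h. In wild type they were 4.42, 4.35 and 4.41 in the control, 4.50, 4.29 and 4.22 at 1 h, 4.48, 4.54 and 5.04 at 3 h, and 5.81, 5.57 and 6.60 at 6 h. Only the wild-type 6 h group had all 3 arrays above 4.69, and it overlapped no other group. In wild type PPDK was called higher at 6 h (1.60, 3.03-fold, SE 0.193, adjusted p = 9.62e-07), with -0.05 at 1 h and 0.29 at 3 h (adjusted p = 0.873 and 0.258). In bzip1/bzip53 it was called higher at 6 h (0.56, 95% interval 0.15 to 0.96, adjusted p = 0.0215), with 0.08 at 1 h and 0.18 at 3 h (adjusted p = 0.817 and 0.472). That mutant call was lost without mutant control array 1 (0.53, adjusted p = 0.0549) or 3 (0.54, 0.0553), or mutant 6 h array 1 (0.53, 0.0588) or 2 (0.52, 0.0626), and fold changes from such dim levels have no exact size. Below the wild-type 6 h mean (5.99 ± 0.54) came the mutant at 6 h (4.70 ± 0.099) and wild type at 3 h (4.68 ± 0.31), which overlapped, and then 5 overlapping groups from 4.39 to 4.15.

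**Figure D1:**
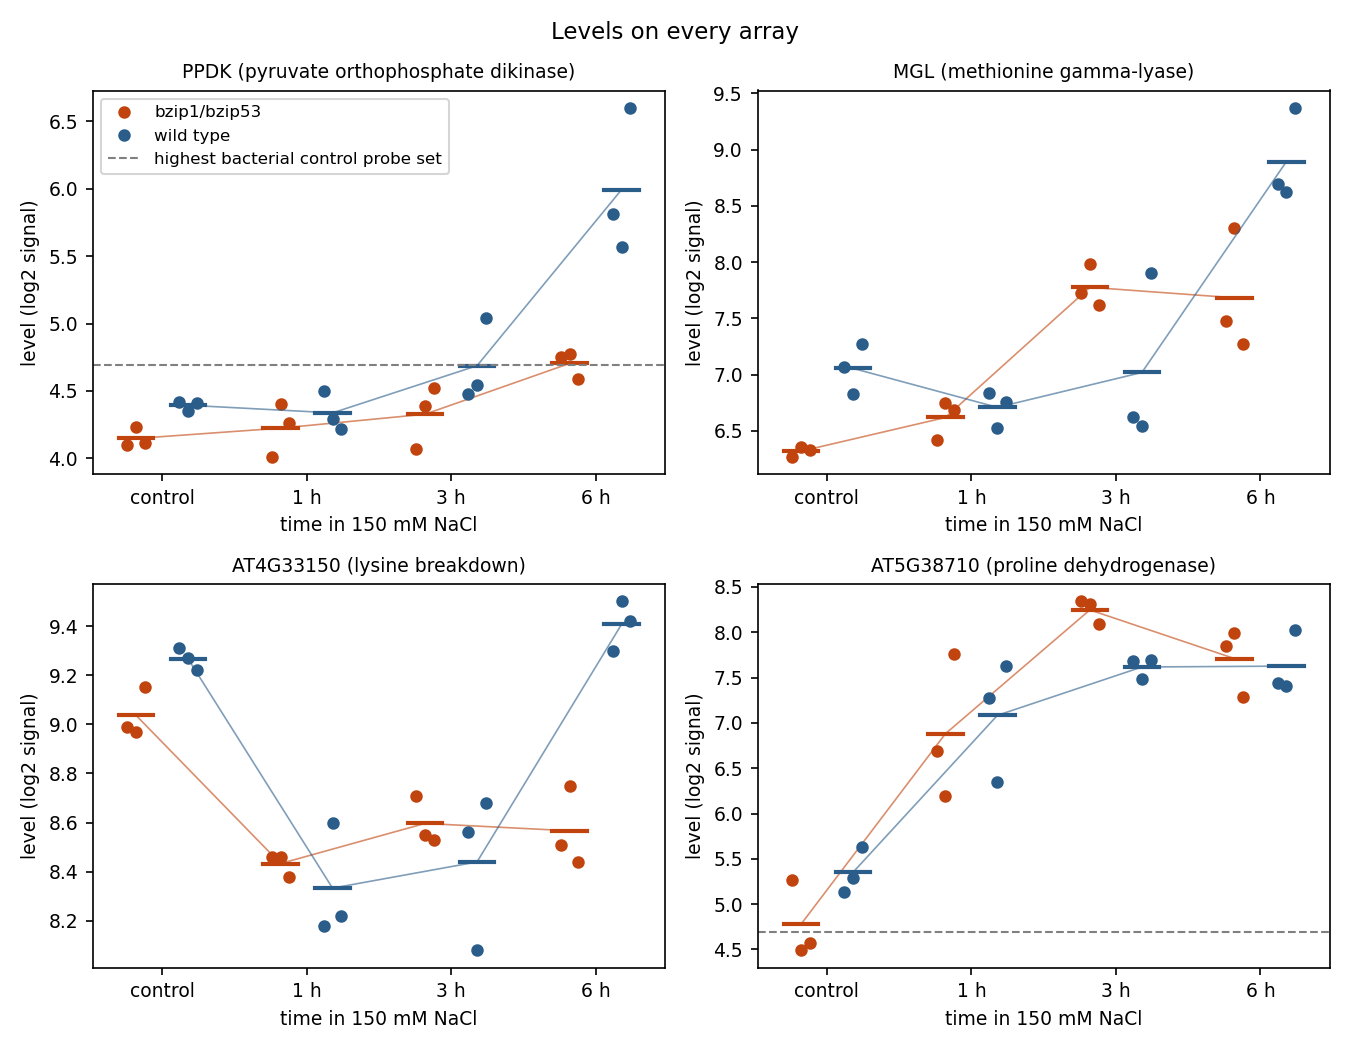
Levels (log2) of the 4 genes in each of the 8 groups, with bzip1/bzip53 left of wild type at each condition; points are the 3 arrays, bars their mean, thin lines join the means, and the dashed line is the brightest bacterial control probe set (4.69). AT5G38710 is above its controls in every salt array, and PPDK stands clear of its other groups in wild type at 6 h.

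Set against the whole array, the 4 genes took unequal parts in the salt response. In bzip1/bzip53, 2 of 4 members were called at 1 h, 3 at 3 h and 4 at 6 h, while 24.1%, 45.5% and 47.9% of all probe sets were called. In wild type the members called were 2, 2 and 3 of 4, beside 24.7%, 35.9% and 47.5% of all probe sets. With so many probe sets called, these counts say little about the members as a group. The range of the 8 group means was 3.47 for AT5G38710, wider than in 98.5% of probe sets, 2.57 for MGL (96.8%), 1.85 for PPDK (93.3%) and 1.07 for AT4G33150 (82.9%). The SD within groups was also wide for AT5G38710 (0.451, above 97.4% of probe sets) and MGL (0.386, above 96.3%), and 0.255 for PPDK and 0.164 for AT4G33150. Over the 8 group means, which come from the same arrays, PPDK correlated with MGL at r = 0.871, AT4G33150 at 0.519 and AT5G38710 at 0.4. MGL and AT5G38710 correlated at 0.603, MGL and AT4G33150 at 0.435, and AT4G33150 and AT5G38710 at -0.445. Within a genotype MGL and AT5G38710 were at 0.902 in the mutant and 0.379 in wild type, PPDK and AT4G33150 at -0.408 and 0.603. These values are a description of few points.

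**Figure D2:**
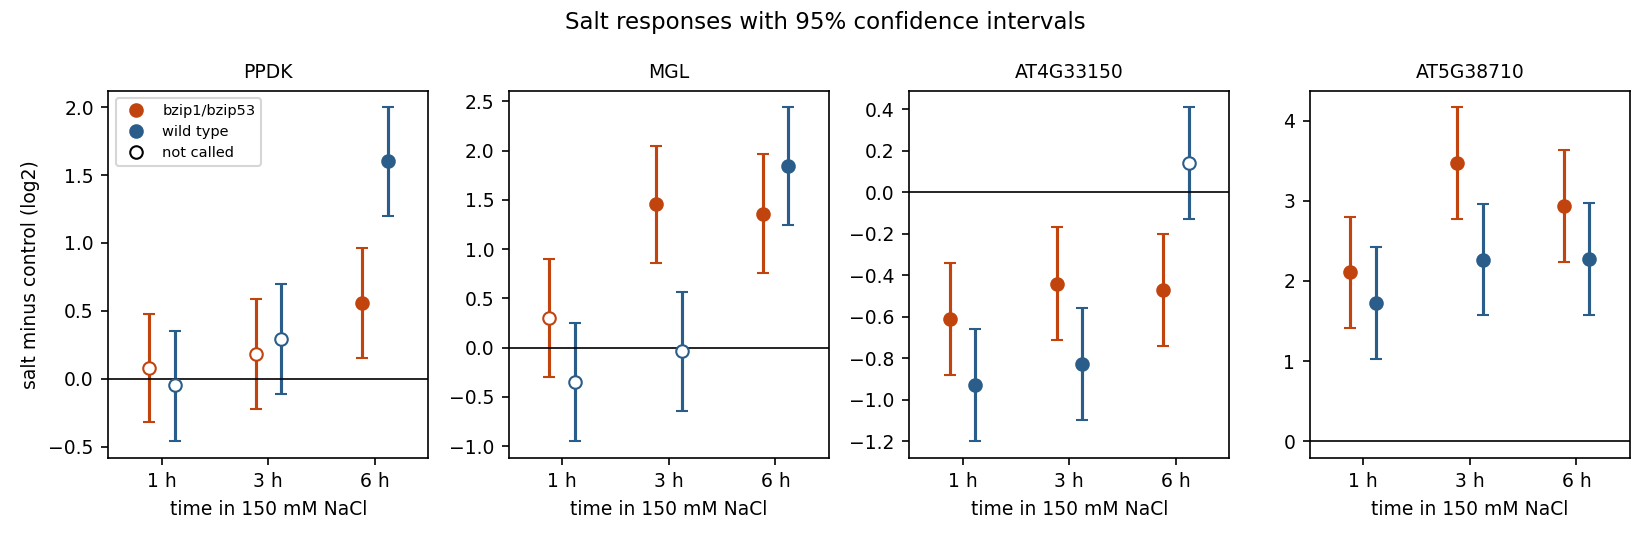
Salt minus control differences (log2) of the 4 genes at 1 h, 3 h and 6 h in bzip1/bzip53 and in wild type, with 95% intervals of the fit; filled points were called. AT4G33150 is below 0 at all 3 times in the mutant and back at its control level within error at 6 h in wild type.

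The steps between times show when each gene moved. From 1 h to 3 h, MGL (1.16, adjusted p = 0.00423) and AT5G38710 (1.37, adjusted p = 0.00385) rose in bzip1/bzip53, 2 of 4 members, beside 31.1% of all probe sets. In wild type none of the 4 was called over that step by limma (8.37% of all probe sets called), and 0 of 4 were at an unadjusted p under 0.05 (21.7% of all probe sets), with 0.31 for MGL and 0.53 for AT5G38710. From 3 h to 6 h none was called in the mutant (11.8% of all probe sets called), and 0 of 4 were at an unadjusted p under 0.05 (23.8% of all probe sets), with differences of 0.37 for PPDK, -0.09 for MGL, -0.03 for AT4G33150 and -0.53 for AT5G38710. In wild type 3 of 4 rose over the same step, beside 14.9% of all probe sets, of which 6.77% were called higher. PPDK rose by 1.31 (adjusted p = 0.000135), MGL by 1.87 (adjusted p = 0.000191) and AT4G33150 by 0.97 (adjusted p = 4.59e-05), and AT5G38710 stood at 0.01 (adjusted p = 0.99).

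Between the genotypes, the clearest differences were at 6 h, where 2 of 4 members were called lower in bzip1/bzip53, beside 0.514% of all probe sets called lower (0.589% in either direction). As the genes were chosen with earlier results of these data known, that contrast is a description and no test. PPDK averaged 4.70 ± 0.099 in bzip1/bzip53 and 5.99 ± 0.54 in wild type at 6 h (-1.29, 95% interval -1.69 to -0.89, adjusted p = 0.00236). The mutant mean lay about at the brightest bacterial control probe set (4.69), so this difference has no exact size. AT4G33150 averaged 8.57 ± 0.16 in bzip1/bzip53 and 9.40 ± 0.10 in wild type at 6 h (-0.84, 1.79-fold lower, 95% interval -1.11 to -0.57, adjusted p = 0.00294). In neither gene did the arrays of the genotypes overlap at 6 h, nor in 15.7% of all probe sets. With only these 6 arrays in the fit, when 3 probe sets were called in all, both calls were lost (adjusted p = 0.242 for PPDK and 0.0909 for AT4G33150). MGL averaged 7.68 ± 0.54 in bzip1/bzip53 and 8.89 ± 0.42 in wild type at 6 h, with no overlap, and its difference just missed the threshold (-1.21, 95% interval -1.81 to -0.61, adjusted p = 0.0586). Without salt the MGL difference was already -0.74, also not called (adjusted p = 0.382). Without mutant 6 h array 2, the brightest of its group, the MGL difference at 6 h was -1.52 and called (adjusted p = 0.0092). In 5 of the 6 fits that left out 1 array it stayed uncalled (adjusted p up to 0.223). AT5G38710 averaged 7.71 ± 0.37 in bzip1/bzip53 and 7.63 ± 0.35 in wild type at 6 h (0.09, 95% interval -0.61 to 0.78, adjusted p = 0.943).

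At the earlier times no member was called between the genotypes. Without salt limma called none of the 4, beside 0.211% of all probe sets, and 1 of 4 was at an unadjusted p under 0.05, beside 2275 probe sets (10%). MGL was at -0.74 there (95% interval -1.33 to -0.14, adjusted p = 0.382), and its mutant controls lay below all wild-type controls, as did those of PPDK (-0.24) and AT4G33150 (-0.23). The genotypes did not overlap in 14.1% of all probe sets there. At 1 h none was called (0.022% of all probe sets called) and 0 of 4 were at an unadjusted p under 0.05 (3.32% of all probe sets), with differences from -0.20 to 0.10. Same-numbered arrays of the genotypes deviated from their group means together at 1 h (r = 0.177, 0.702 and 0.719), which the main fit does not model. At 3 h none was called, although 10.2% of all probe sets were, and 1 of 4 was at an unadjusted p under 0.05, beside 26.3% of all probe sets. MGL was at 0.76 (95% interval 0.16 to 1.36, adjusted p = 0.0969) and AT5G38710 at 0.63 (adjusted p = 0.238), with all mutant arrays of AT5G38710 above all wild-type arrays, and 36.1% of all probe sets did not overlap between the genotypes at 3 h. With only the 3 h arrays in the fit, the AT5G38710 difference was called (adjusted p = 0.00945). Without the third wild-type array at 3 h the MGL difference was 1.2 and called (adjusted p = 0.00836), so for MGL the result at 3 h rests on that array. In 5 of the 6 fits that left out 1 array the difference stayed uncalled (adjusted p up to 0.317). Averaged over the 4 conditions, 1 of 4 members was called, beside 3.57% of all probe sets. This was PPDK (-0.50, SE 0.0964, adjusted p = 0.0104), and MGL was at -0.32, AT4G33150 at -0.20 and AT5G38710 at -0.01 without calls. By condition PPDK was at -0.24 in the control, -0.11 at 1 h and -0.35 at 3 h, none called, and at -1.29 at 6 h. Up to 3 h most of its values lay below the brightest bacterial control probe set (4.69). Without the second wild-type array at 3 h AT4G33150 was at -0.25 over the mean and called (adjusted p = 0.0228). In 23 of the 24 fits that left out 1 array it stayed uncalled (adjusted p up to 0.15).

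**Figure D3:**
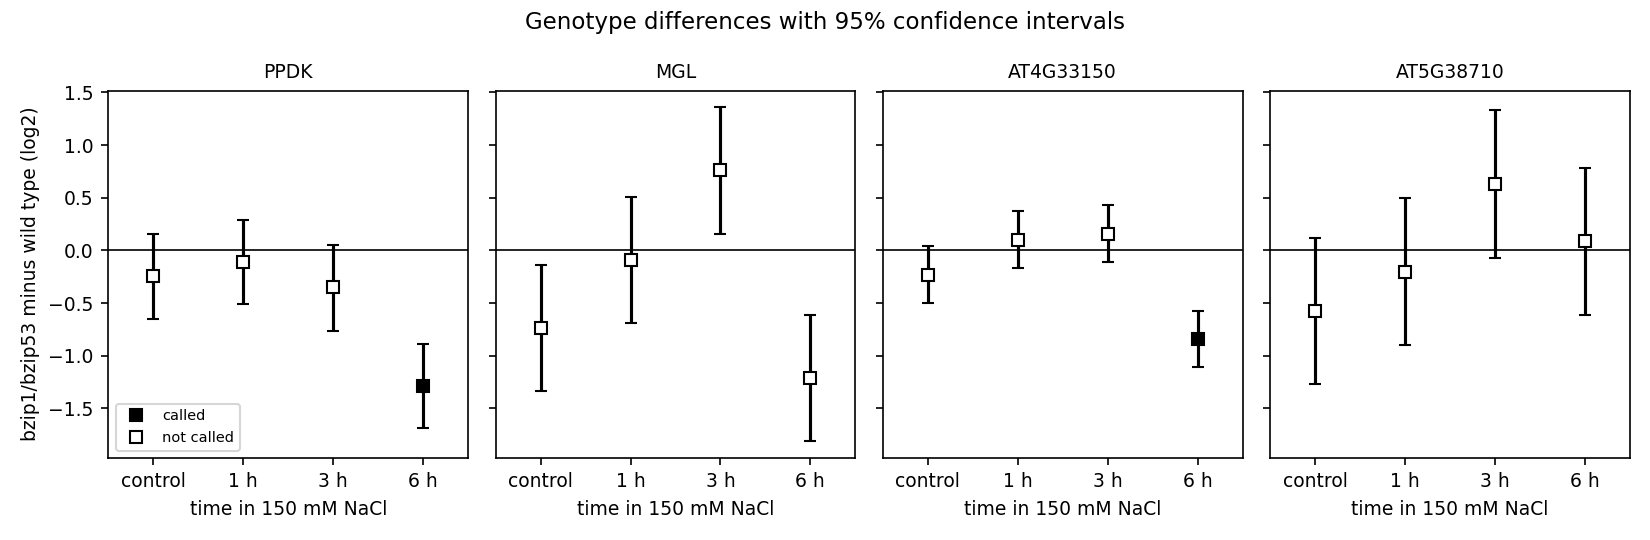
Differences between bzip1/bzip53 and wild type (mutant minus wild type, log2) of the 4 genes in the control and at 1 h, 3 h and 6 h, with 95% intervals of the fit; filled points were called. PPDK and AT4G33150 are called lower in the mutant at 6 h, and MGL lies above 0 at 3 h and below 0 at 6 h without a call.

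Whether the salt responses themselves differed was tested as the mutant response minus the wild-type response. No member was called by limma at 1 h, 3 h or 6 h, beside 0%, 1.46% and 0.0791% of all probe sets. At an unadjusted p under 0.05 were 0, 3 and 2 of 4 members, beside 830, 3612 and 1694 probe sets (3.65%, 15.9% and 7.45%). The largest differences were those of MGL at 3 h (1.49, 95% interval 0.64 to 2.34, adjusted p = 0.0692), AT5G38710 at 3 h (1.21, 95% interval 0.22 to 2.19, adjusted p = 0.209) and PPDK at 6 h (-1.04, 95% interval -1.61 to -0.47, adjusted p = 0.217). For AT4G33150 the difference was 0.39 at 3 h and -0.61 at 6 h (95% interval -0.99 to -0.23, adjusted p = 0.344). For MGL at 6 h it was -0.48 (95% interval -1.32 to 0.37, adjusted p = 0.867). The MGL difference at 3 h was 1.93 and called without the third wild-type array (adjusted p = 0.00994). In 11 of the 12 fits that left out 1 array it stayed uncalled (adjusted p up to 0.173). With only the control and 3 h arrays in the fit, the AT5G38710 difference at 3 h was called (adjusted p = 0.0368). The 3 times share the control arrays of both genotypes. Most PPDK levels were no brighter than the brightest bacterial control probe set, so its differences of responses have no exact size.

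The step from 3 h to 6 h was also compared between the genotypes, a test added after the values were seen. Its p-values do not account for that choice. Its counts of members are therefore a description, with the shares of all probe sets given for scale. The step was smaller in bzip1/bzip53 for 3 of 4 members, beside 5.76% of all probe sets called in this comparison and 2.77% called lower. The difference was -1.97 for MGL (SE 0.406, 95% interval -2.81 to -1.12, adjusted p = 0.00838), -1 for AT4G33150 (SE 0.183, adjusted p = 0.00436) and -0.93 for PPDK (SE 0.273, adjusted p = 0.0483). The PPDK means other than wild type at 6 h lay about at or below the brightest bacterial control probe set, so its value has no exact size. For AT5G38710 the difference was -0.55 (adjusted p = 0.58). The leaf marker RCA was called in the opposite direction in this comparison (1.17, adjusted p = 0.0346), and its part in the result was not tested. The PPDK call ended in 9 of 12 fits that left out 1 array (adjusted p up to 0.123), and with only the 12 arrays of this comparison MGL was at an adjusted p of 0.0529 and PPDK at 0.132.

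Few other enzymes of the same pathways could be read under a gene name. Of 97 listed genes of proline, lysine, methionine and threonine, asparagine, tyrosine and pyruvate turnover, 18 were measured with a name of their own, of which 14 were not members. The other listed genes were not matched to a probe set by name. As 8730 of the 22746 probe sets tested had no gene symbol, they may still be on the array. In bzip1/bzip53, 1 of these 14 rose and none fell at 1 h, 3 rose and 4 fell at 3 h, and 4 rose and 3 fell at 6 h, beside 24.1%, 45.5% and 47.9% of all probe sets called in either direction. In wild type 1 rose and none fell at 1 h, 3 rose and 1 fell at 3 h, and 6 rose and 2 fell at 6 h, beside 24.7%, 35.9% and 47.5%. Their median difference at 6 h was 0.15 in bzip1/bzip53 and 0.16 in wild type, against -0.08 over all probe sets in both. Single left-out arrays ended 2 of the 4 decreases at 3 h in the mutant, those of PDC2 for a pyruvate decarboxylase (-0.46) and the pyruvate kinase gene AT5G08570 (-0.23), and in wild type the increases of AT5G56350 at 3 h (0.27) and AT5G63680 at 6 h (0.23).

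In lysine breakdown, the aldehyde dehydrogenase gene ALDH7B4, whose enzyme is placed downstream of that of AT4G33150, had means of 9.65, 9.60, 10.69 and 11.08 in bzip1/bzip53 and 9.80, 9.62, 10.37 and 11.53 in wild type (control, 1 h, 3 h, 6 h). It rose at 3 h (1.04 in bzip1/bzip53 and 0.56 in wild type) and at 6 h (1.43 and 1.73), unlike AT4G33150, which fell at 3 h in both. At 6 h ALDH7B4 was lower in the mutant than in wild type (-0.46, adjusted p = 0.0485), a call that ended with the replicate number as a block (adjusted p = 0.0542). It also ended with arrays centred on the median (0.0692), with only the groups compared (0.434) and in 4 of the 6 fits that left out 1 array (up to 0.2). In proline turnover DELTA-OAT, the ornithine aminotransferase gene, rose at 6 h in bzip1/bzip53 (0.46) and in wild type (0.70), and the proline dehydrogenase gene ERD5 was not analysed here.

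In methionine metabolism HMT-1, for a homocysteine methyltransferase that makes methionine, rose at all 3 times, by 0.61, 1.64 and 1.35 in bzip1/bzip53 and by 0.73, 1.21 and 1.48 in wild type. Its 1 h call in the mutant was lost without mutant control array 1 (adjusted p = 0.062) or mutant 1 h array 3 (0.0997). HMT-1 was higher in the mutant than in wild type at 3 h (0.68, adjusted p = 0.0167), not called without the third wild-type array (0.0553) or the second mutant array (0.0556) at that time. CBL, for cystathionine beta-lyase of methionine synthesis, fell at 6 h in both genotypes (-0.42 in bzip1/bzip53 and -0.39 in wild type).

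Of 6 measured pyruvate kinase genes, whose enzymes turn phosphoenolpyruvate into pyruvate, AT5G56350 rose at 6 h (0.94 in bzip1/bzip53 and 0.89 in wild type), and AT4G26390, AT3G04050 and AT3G25960 were not called against the control at any time. The group means of these 3 genes, 3.75 to 4.75, lay about at or below the brightest bacterial control probe set, so a change in them may not be detectable here. Asparaginases release ammonium from asparagine, and the asparaginase gene ASPGA1 fell at 3 h and 6 h, by 0.62 and 0.61 in bzip1/bzip53 and by 0.38 and 0.67 in wild type on the log2 scale. ASPGB1 rose at 6 h in wild type (0.69) and was at -0.01 in bzip1/bzip53, and the genotypes at 6 h differed by -0.70 (adjusted p = 0.0711). The comparison of the step from 3 h to 6 h was added after the values were seen. In it ASPGB1 (-1.14, adjusted p = 0.0113) and ALDH7B4 (-0.78, adjusted p = 0.00481) were called lower in the mutant, 2 of 14, beside 2.77% of all probe sets. None of the 14 was called higher, and their median step difference was 0, against -0.01 over all probe sets. The largest difference the other way was 0.70 for PDC2 (adjusted p = 0.0972).

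**Figure D4:**
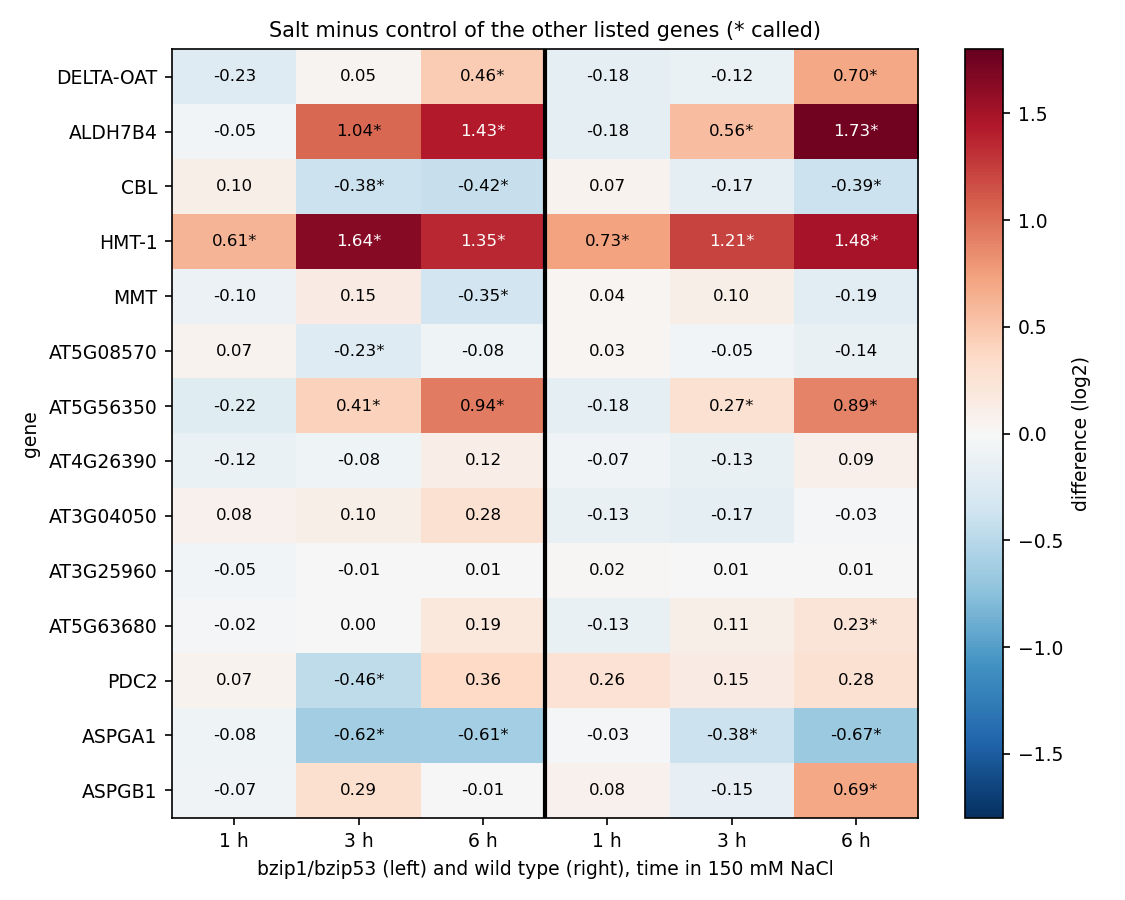
Salt minus control differences (log2) of the 14 other measured genes of these pathways at 1 h, 3 h and 6 h, in bzip1/bzip53 and in wild type; the marked values were called. HMT-1 and ALDH7B4 show the largest increases and ASPGA1 the largest decrease at 6 h.

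The named genes with the most similar pattern were taken by Pearson r over the 8 group means among 2239 genes whose means ranged over at least 1 log2, as a description with no test. The genes closest to AT5G38710 were AT3G15200, AT5G54170 and AT3G15350 (r = 0.995 each), AT1G61890 (0.994) and AT1G53060 (0.993). AT1G61890, a gene without a symbol, had means of 8.93, 10.80, 12.18 and 11.83 in bzip1/bzip53 and 9.12, 10.93, 11.50 and 11.65 in wild type, so it too was highest in the mutant at 3 h. AT4G33150 had no match as close, with AT5G59845 at 0.909, AT1G71695 at 0.902, AT4G17280 and AT2G43390 at 0.898 and AT2G05540 at 0.862.

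For MGL the closest genes were AT2G41190 (r = 0.98), SKP2A (0.974), AT5G03180 (0.971), IVD (0.962) and AT1G24600 (0.956). IVD, whose enzyme isovaleryl-CoA dehydrogenase acts in leucine breakdown, had means of 7.95, 7.85, 8.53 and 8.77 in bzip1/bzip53 and 8.32, 7.87, 7.98 and 9.57 in wild type, the same order at 3 h and 6 h between the genotypes as MGL. SKP2A encodes an F-box protein of ubiquitin ligases. For PPDK they were AT3G17520 (0.97), RR16 (0.947), SWEET4 (0.937), AT1G07040 (0.918) and GAT1_2.1 (0.916). SWEET4, for a sugar transporter, averaged 4.71 in bzip1/bzip53 and 6.60 in wild type at 6 h, and its other means lay between 3.78 and 4.22, below the brightest bacterial control probe set. RR16, for a response regulator of cytokinin signalling, averaged 3.80 in bzip1/bzip53 and 5.34 in wild type at 6 h, with its other means between 3.30 and 3.82. RR16 and AT3G17520 thus exceeded the brightest bacterial control probe set only in the mean of wild type at 6 h. GAT1_2.1, for a protein with a glutamine amidotransferase domain, averaged 7.14 in bzip1/bzip53 and 8.43 in wild type at 6 h.

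**Figure D5:**
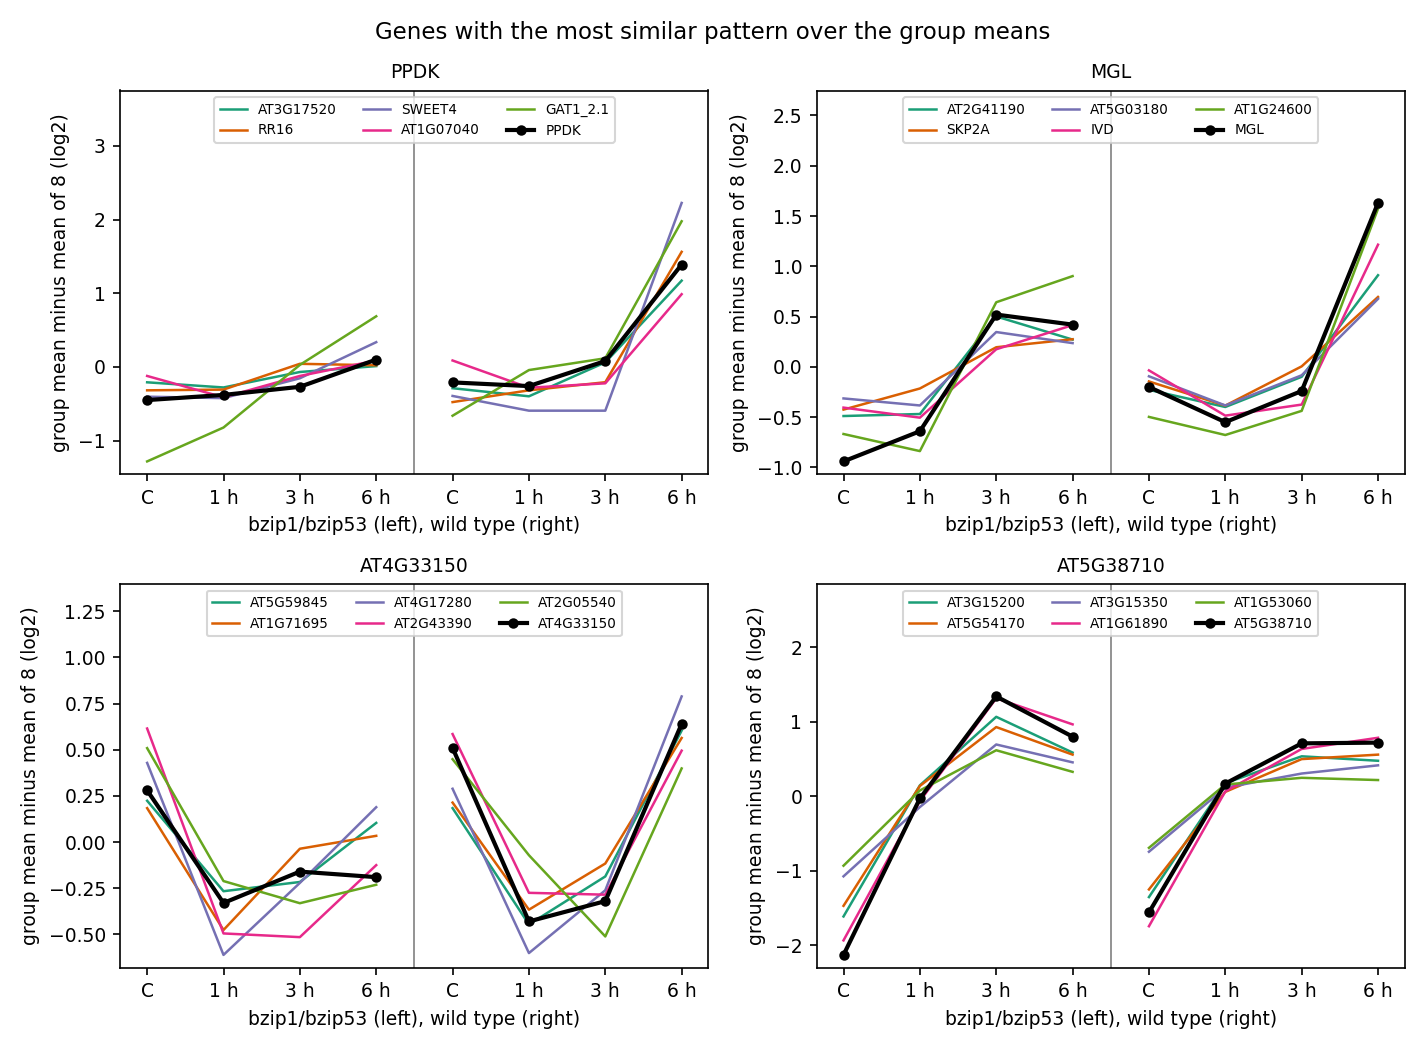
Group means (log2, minus the mean of the 8 groups) of each of the 4 genes and its 5 most similar genes, with bzip1/bzip53 left and wild type right. The PPDK and MGL panels peak in wild type at 6 h, and the AT5G38710 panel peaks in the mutant at 3 h.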

How the data were processed

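The deposited values are log2 expression values of 22810 probe sets. RMA, affy and limma are the authors' tools and TAIR9 the build, per the submitters' processing notes, and no version is stated. RMA corrects background, equalises the intensity distribution between arrays and summarises probes, so a shift common to most genes is not visible. The log2 scale was inferred from the range of 2.46 to 14.04. The 64 control probe sets were left out. Of the 22746 tested, 13513 had 1 gene symbol in the platform annotation, 503 several and 8730 none, and 13436 of the 13513 matched an NCBI RefSeq table of TAIR10.1, used only for names.

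One mean for each of the 8 groups was fitted to all 24 arrays with limma 3.58.1 (R 4.3.3), with two-sided moderated tests, 16 residual and 3.83 prior degrees of freedom, and Benjamini-Hochberg adjustment within each of 19 comparisons. The comparisons were salt against control and successive times within each genotype, mutant against wild type in each condition and over their mean, the difference of the salt responses, and the difference of the step from 3 h to 6 h, the last added after the values were seen. Intervals are 95% and cover the spread between arrays, whose number (3 a group) limits the precision. The genes, pathway lists and tests were chosen with earlier results of these data known. The named genes were the 4 members, BZIP53, the measured listed genes, and for each member the 5 most similar genes. The fit was tested on simulated data. Same-numbered arrays deviated together (every r over 0.1) for wild type at 6 h against control (0.148, 0.266 and 0.405) and for the genotypes at 1 h (0.177, 0.702 and 0.719). Wild type at 1 h against control came close (0.093, 0.433 and 0.579), and no other comparison had every r over 0.1. Alternatives were a replicate block, array weights, a trended robust prior, a filter on dim probe sets (mean under 5), other scalings, smaller fits, left-out arrays and a fold of at least 2. Promoter motifs and scanner files were not analysed here.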

Additional observations from a re-analysis of the deposited data

Results flagged for a closer look

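The step from 3 h to 6 h was compared between bzip1/bzip53 and wild type by the interaction test added after the values were seen. It was called lower in the mutant for 3 of the 4 enzyme genes and 2 of the 14 other listed genes. The p-values do not account for that choice of test. Over all probe sets 5.76% were called in this comparison and 2.77% lower, and the leaf marker RCA was called higher in the mutant (1.17). The difference was -1.97 for MGL, -1 for AT4G33150, -0.93 for PPDK, -0.78 for ALDH7B4 and -1.14 for ASPGB1 (log2). Over the 12 fits that each left out 1 array, MGL ranged from -2.41 to -1.73, AT4G33150 from -1.12 to -0.81, ALDH7B4 from -0.86 to -0.65 and ASPGB1 from -1.26 to -1.01, all with calls. PPDK ranged from -1.15 to -0.63 and kept its call in 3 of these 12 fits.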

How the results depend on the processing

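With the replicate number as a block no call of the 4 genes changed, and PPDK at 6 h in bzip1/bzip53 against wild type stayed at -1.288 (adjusted p = 0.00261). For each array, its deviations were correlated with those of arrays in other groups and averaged by replicate number. The own number had the highest of the 3 means for 10 of 24 arrays. The listed genes that were called numbered 2 at 3 h and 0 at 6 h between the genotypes with the block, against 1 and 1 without it. Each member has 1 probe set, so the choice of probe set could not be varied, the mean of the 4 conditions has no smaller fit, and the filter on a mean of at least 5 removed PPDK.

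With array weights, uncalled values changed sign for PPDK at 1 h in the mutant (-0.092), MGL at 3 h in wild type (0.169), AT5G38710 from 3 h to 6 h in wild type (-0.082) and the PPDK difference of responses at 1 h (-0.065), and AT4G33150 over the mean of conditions was called (-0.195). AT5G38710 over that mean was 0.031 with arrays centred on their median, 0.013 after another quantile normalization, which also ended the PPDK call for the step difference (-0.916), and 0.045 without wild-type array 3 at both 3 h and 6 h. The filter on dim probe sets made MGL at 6 h between the genotypes a call (-1.211). With only the groups compared, calls were gained by AT5G38710 between the genotypes (0.632) and in the difference of responses (1.206) at 3 h, and lost at 6 h between the genotypes by PPDK (-1.288) and AT4G33150 (-0.836) and for the step difference by PPDK (-0.933) and MGL (-1.967). Leaving out those 2 arrays together, chosen after seeing the data, turned MGL (-0.127) and AT4G33150 (-0.018) from 1 h to 3 h and AT5G38710 from 3 h to 6 h (-0.153) in wild type and the PPDK difference of responses at 3 h (0.066), and made calls of MGL between the genotypes at 3 h (1.195) and 6 h (-0.972) and of its difference of responses at 3 h (1.93).

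Leaving out 1 array at a time changed the sign or call of these results. Against the control, PPDK ranged from -0.011 to 0.184 at 1 h and 0.523 to 0.614 at 6 h in the mutant and from -0.139 to 0.006 at 1 h in wild type, and MGL from -0.475 to 0.204 at 3 h in wild type. From 1 h to 3 h, PPDK ranged from 0 to 0.234 in the mutant, and in wild type MGL from -0.127 to 0.552 and AT4G33150 from -0.018 to 0.286. From 3 h to 6 h, the mutant values ranged from -0.402 to 0.114 for MGL and -0.121 to 0.034 for AT4G33150, and AT5G38710 in wild type from -0.191 to 0.12. Between the genotypes, MGL ranged from -0.181 to 0.011 at 1 h, 0.516 to 1.195 at 3 h and -1.52 to -0.972 at 6 h. AT5G38710 ranged from -0.643 to 0.147 at 1 h, -0.054 to 0.296 at 6 h and -0.125 to 0.072 over the mean of conditions. AT4G33150 ranged from -0.022 to 0.282 at 3 h and -0.247 to -0.169 over the mean. The difference of responses ranged from -0.068 to 0.721 for AT5G38710 at 1 h, and at 3 h from -0.213 to 0.066 for PPDK and 1.252 to 1.93 for MGL. The step difference of PPDK ranged from -1.146 to -0.629.

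Counts over all probe sets moved by more than 1.5 times in places. With array weights they were 8759 at 1 h in the mutant (against 5473), 3497 and 5328 for the wild-type steps (1903 and 3388), 85, 4883 and 326 between the genotypes at 1 h, 3 h and 6 h (5, 2330 and 134), 1046 and 35 for the responses at 3 h and 6 h (331 and 18), 3389 over the mean (811) and 2348 for the step difference (1310). With only the groups compared they were 3557 at 1 h in the mutant, 1217 and 1972 for the wild-type steps, 2, 3 and 3 between the genotypes in the control (48), at 1 h and at 6 h, 635 and 3 for the responses at 3 h and 6 h, and 725 for the step difference. Another quantile normalization gave 31 in the control, 10 for the response at 6 h and 360 over the mean. Without wild-type array 3 at both 3 h and 6 h the wild-type step from 3 h to 6 h had 1391, the genotypes at 3 h 1262, the response at 6 h 10 and the step difference 651. The response at 1 h had 0 calls, 4 with a trended robust prior and 1 with weights or either scaling. A fold of at least 2 left 1150, 2667 and 2738 calls in the mutant, 1160, 1837 and 2559 in wild type, and 19 between the genotypes at 6 h. Leaving out 1 array at a time moved the counts between the genotypes to 23 to 129 in the control, 765 to 1819 at 3 h and 40 to 465 at 6 h, over the mean to 268 to 1251, for the responses to 0 to 7 at 1 h, 45 to 277 at 3 h and 4 to 41 at 6 h, for the wild-type steps to 927 to 2221 and 2057 to 2931, for the mutant step from 3 h to 6 h to 1755 to 2670 (2690), and for the step difference to 525 to 1979, so the shares of all probe sets beside the members' counts are uncertain by as much.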
